A study of Mus musculus with 20 samples.

Results

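The Forkhead (Fox) genes encode transcription factors that share a winged-helix DNA-binding domain. The 39 Fox genes described here were taken by name from the 21631 protein-coding genes of the autosomes and X. They were placed in 3 role groups from what is generally known of each gene, but with earlier results of these data known. The grouping is therefore not independent of the data. There were 11 widely expressed members, 2 members active in pluripotent cells (Foxd3 and Foxh1) and 26 lineage members, which act in particular tissues. The regions of a gene were merged Suz12 peaks within 1 kb of either annotated end in mm10. Of the 39 genes, 36 had at least 1 region, and together they had 50 of the 11943 regions of the series. Where a gene had several, the region nearest an end, and then the widest, stood for the gene. Exons and introns were not annotated here.

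Binding of Suz12 was measured by chromatin immunoprecipitation and sequencing (ChIP-seq) in wild-type E14 cells, a mouse embryonic stem (ES) cell line, kept in serum with leukemia inhibitory factor on gelatin. The treated groups were DRB at 100 µM for 12 h and triptolide at 10 µM for 9 h, each set against its own 0 h group, with 2 libraries in each of the 4 groups. All 4 groups shared the genotype and the culture medium, and 12 of the 20 samples of the series were not analysed here. The series names the replicates biological but gives no separate cultures, so the p-values measure the spread between these libraries, which may be technical.

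Suz12 belongs to Polycomb repressive complex 2, which methylates lysine 27 of histone H3 and in ES cells sits on CpG-rich starts of silent developmental genes. DRB stops RNA polymerase II from entering elongation, and triptolide blocks initiation. Lineage Fox genes are well-known Polycomb targets of ES cells: Foxa1 and Foxa2 open chromatin in endoderm, Foxc1, Foxc2, Foxf1 and Foxf2 act in mesoderm, and Foxb1 and Foxb2 in the nervous system. Widely expressed members include Foxo1 and Foxo3, which Akt holds out of the nucleus, Foxm1, which drives mitotic genes, and Foxk1 and Foxk2, which act in metabolism and autophagy.

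The libraries held 2416523 to 7340017 reads over the regions after treatment and 1323927 to 4396744 before it. Replicate libraries differed beyond counting noise (chi-square over its degrees of freedom, 2.47 to 8.65). Sequencing lane moved with treatment (lanes 3 and 6 for treated libraries, 1 and 4 for untreated ones), so the lane and the treatment cannot be told apart. None of 9 ES cell marker genes had a peak in an untreated list, whereas 7 of 8 lineage regulators had a peak in all 8 lists. That is the usual Polycomb pattern of ES cells, but expression of the markers was not measured in these libraries. Over all genes, 23.2% to 34.3% had a peak in a treated list and 15.9% to 19.8% in an untreated list, so a peak seen after treatment alone has a high background.

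Before any drug, Suz12 already lay on most lineage Fox genes and on part of the widely expressed ones. Among the widely expressed members 6 of 11 had a peak in an untreated list, against 22 of 26 lineage members, and the 22 were the same in each of the 4 untreated lists. A peak in all 8 lists was found at 4 of the 11 widely expressed members (Foxj2, Foxn3, Foxo3 and Foxp1), at Foxd3 and at 22 of the 26 lineage members. In total 27 of 39 members (69.2%) were bound in all 8 lists, against 14.6% of all genes. No member lost its peak, but only 1 of all 21631 genes did, so this does not set the family apart. In these bulk libraries, fewer cells with Suz12 at a gene and less Suz12 at it per cell cannot be told apart.

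Peaks seen in treated lists alone were found at 7 of the 39 members, 5 of them widely expressed. Such peaks were common in general. Over all 21631 genes 7963 had a region and 4535 had a peak in an untreated list, against 36 and 29 of the 39 members. Foxk1, and Foxa3 among the lineage members, had a peak after treatment in all 4 lists but never before it, which held for 4.02% of all genes. Foxj3, Foxm1 and Foxn2 had one in both DRB 12 h lists alone, Foxk2 in 1 triptolide 9 h list and Foxh1 in 1 DRB 12 h list. The DRB 12 h lists were the larger ones in general, with a peak at 34.3% and 31.5% of all genes, against 23.2% and 30.0% in the triptolide 9 h lists. Foxo1 and Foxp4 were called in each of the 4 treated lists, and Foxo1 in 3 and Foxp4 in 2 of the untreated ones. The remaining 3 lineage members had no region: Foxi1, which marks proton-secreting cells of the inner ear and kidney, Foxn1, the regulator of thymic epithelium, and Foxs1. Over all genes 63.2% had none.

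**Figure D1:**
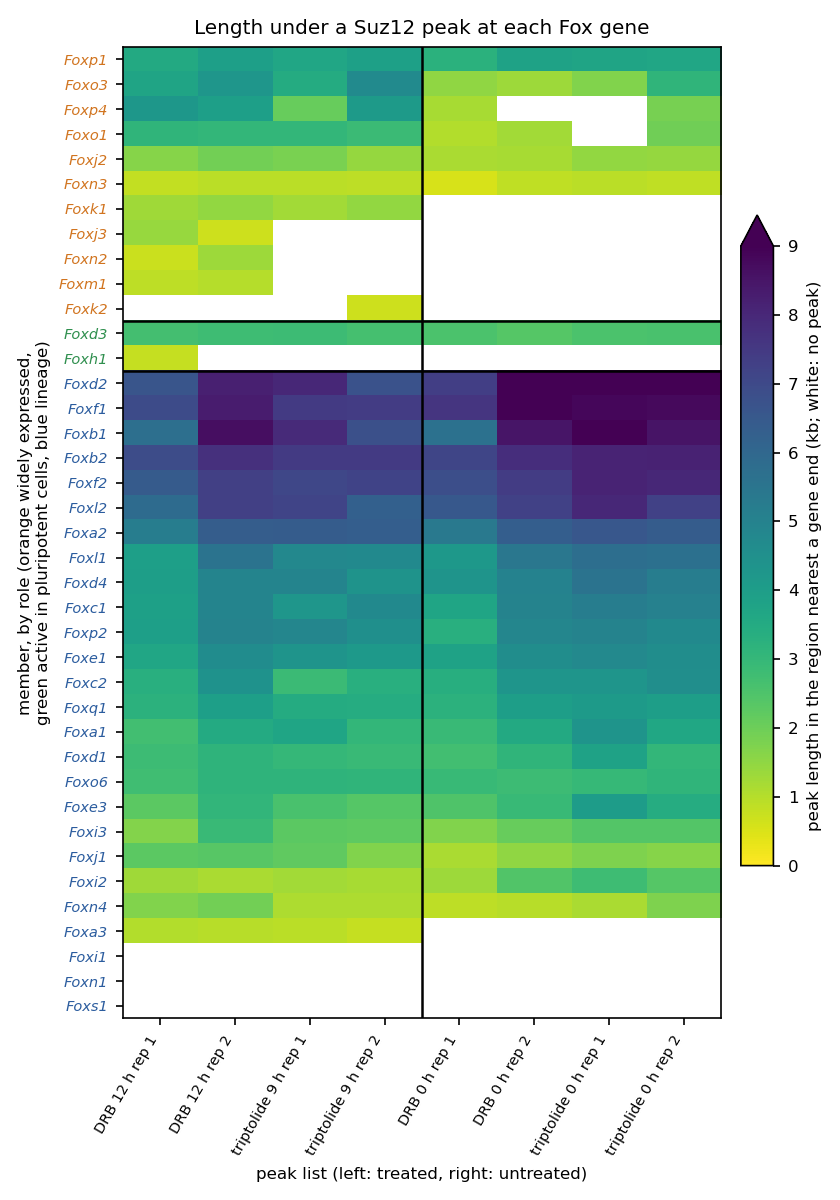
Length under a Suz12 peak (kb, colour) in the region nearest a gene end, for the 39 Fox genes (rows, by role) in the 8 peak lists (columns, treated left of untreated, 1 library each); white marks no peak. The lineage rows are filled in all lists except Foxa3, filled in the 4 treated lists alone, and Foxi1, Foxn1 and Foxs1, which are empty.

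Polycomb binding in ES cells is known for CpG-dense starts, so the promoters were read for their CG dinucleotides. RefSeq promoters of GRCm38.p6, each from 250 bases before to 50 after a start site, matched 25 of the 39 members. The promoters of 6 members follow, as the 250 bases before the start with every CG in capitals, to show the range of CG content. Foxo1 and Foxp4 are widely expressed, Foxd3 is active in ES cells, and Foxl2 and Foxi2 are lineage members bound in all 8 lists. Foxn1 is a lineage member with no region.
Foxo1, chr3:52268087-52268336, plus strand: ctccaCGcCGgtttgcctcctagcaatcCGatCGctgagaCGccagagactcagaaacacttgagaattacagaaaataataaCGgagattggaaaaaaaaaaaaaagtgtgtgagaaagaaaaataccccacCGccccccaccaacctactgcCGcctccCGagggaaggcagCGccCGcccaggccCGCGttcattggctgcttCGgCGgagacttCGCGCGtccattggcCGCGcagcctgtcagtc
Foxp4, chr17:47924633-47924882, minus strand: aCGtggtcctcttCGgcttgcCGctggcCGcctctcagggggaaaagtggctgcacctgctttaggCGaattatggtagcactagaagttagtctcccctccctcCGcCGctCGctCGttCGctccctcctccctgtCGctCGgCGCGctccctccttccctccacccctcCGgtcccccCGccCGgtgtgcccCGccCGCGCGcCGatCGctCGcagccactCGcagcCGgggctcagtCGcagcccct
Foxd3, chr4:99656049-99656298, plus strand: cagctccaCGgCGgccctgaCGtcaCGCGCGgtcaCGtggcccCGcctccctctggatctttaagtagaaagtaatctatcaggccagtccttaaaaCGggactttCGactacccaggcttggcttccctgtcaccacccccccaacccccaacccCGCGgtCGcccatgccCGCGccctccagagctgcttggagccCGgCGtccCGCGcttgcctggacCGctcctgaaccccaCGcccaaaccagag
Foxl2, chr9:98955357-98955606, plus strand: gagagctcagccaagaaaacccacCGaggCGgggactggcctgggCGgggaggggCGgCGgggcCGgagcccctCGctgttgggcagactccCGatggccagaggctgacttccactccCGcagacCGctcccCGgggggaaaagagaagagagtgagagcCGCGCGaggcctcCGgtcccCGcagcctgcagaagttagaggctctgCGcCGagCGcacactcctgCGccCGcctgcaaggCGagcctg
Foxi2, chr7:135410117-135410366, plus strand: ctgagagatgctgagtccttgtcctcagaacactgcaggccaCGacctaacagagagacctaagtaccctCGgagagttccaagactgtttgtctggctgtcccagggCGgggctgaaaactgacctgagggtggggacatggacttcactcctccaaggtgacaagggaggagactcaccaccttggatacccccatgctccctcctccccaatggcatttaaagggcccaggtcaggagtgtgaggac
Foxn1, chr11:78386609-78386858, minus strand: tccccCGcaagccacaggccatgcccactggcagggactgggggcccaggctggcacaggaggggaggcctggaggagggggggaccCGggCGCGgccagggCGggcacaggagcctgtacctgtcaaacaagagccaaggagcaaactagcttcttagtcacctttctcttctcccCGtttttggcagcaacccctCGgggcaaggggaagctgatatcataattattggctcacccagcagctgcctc
These 250 bases hold 20 CG at Foxo1, 27 at Foxp4, 21 at Foxd3, 22 at Foxl2, 3 at Foxi2 and 7 at Foxn1.

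Over the full window of 300 bases, the widely expressed members with a match had a median of 34 CG (n = 8, from 6 at Foxn3 to 59 at Foxk2). The lineage members with a region had a median of 22 (n = 14, from 5 to 32), and Foxi1 and Foxn1, with no region, had 6 and 8. The median of all genes was 14, and that of all genes with a region was 22, the same as for these lineage members. A promoter counted as CpG-rich with a GC share of at least 50% and an observed-to-expected CG ratio of at least 0.6. By that measure 16 of 25 Fox promoters (64.0%) were CpG-rich, against 70.0% of all genes with a region, 33.1% of genes with none and 46.4% of all genes. Among the 18 matched members bound in all 8 lists, 7 were not CpG-rich: Foxa2, Foxb2, Foxd4, Foxe3, Foxi2, Foxn3 and Foxp1. The printed stretch lies inside the bound region for each of Foxo1, Foxp4, Foxd3, Foxl2 and Foxi2. The RefSeq windows of Foxa1, Foxk2 and Foxn3 lie outside the region nearest an end, and that of Foxn3 is over 112 kb from it. The window of Foxa1 lies in a further region of that gene, bound in all 8 lists, from -1540 to 1399 bp relative to the start. Other starts of a gene and the rest of its region were not read.

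After transcription was blocked, Suz12 reads rose at 9 members and fell at 20, with 7 not called. In this comparison 28.0% of all regions rose and 28.9% fell. The test was edgeR's quasi-likelihood test over all 11943 regions, on the mean of both drugs' treated-over-untreated change, at a Benjamini-Hochberg adjusted p under 0.05. Of the 11 widely expressed members 6 rose and 1 fell, with a median log2 change of 0.46, while of the 23 lineage members with a region 1 rose (Foxa3) and 19 fell, with a median of -0.59. Both members active in pluripotent cells rose. However, Foxj3, Foxk1, Foxk2, Foxm1, Foxn2, Foxh1 and Foxa3 have a region only because a treated list called a peak there. A rise at these 7 is partly fixed by how they entered, and 44.2% of all regions with peaks in treated lists alone rose. Of the 6 widely expressed members with an untreated peak, 3 rose and 1 fell. Every treated library lay above every untreated one at 7 members, against 24.4% of all regions, and below at 17 members, against 25.2%. Scaled to regions with a peak in all 8 lists, as described next, these counts were 13 above and 11 below, against 41.2% and 9.84% of all regions. The median of all regions was 0.05, and that of regions with a peak in all 8 lists was -0.38, of which 59.1% fell and 10.3% rose.

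The fall of lineage members is relative and its extent moves with the scaling. The main scaling was TMM, which takes most regions to be unchanged. When the libraries were scaled to their summed reads in regions with a peak in all 8 lists, the median of all regions moved to 0.39. On that scaling 9 of the 11 widely expressed members rose and none fell (median 0.80), and 3 lineage members rose and 12 fell (median -0.25). In all, 14 members rose and 12 fell, against 47.4% of all regions that rose and 11.2% that fell. Scaled to the sum of all counts, 8 widely expressed members rose, and 1 lineage member rose while 16 fell (medians 0.66 and -0.39, against 0.25 for all regions). Nothing in the files measures the total Suz12 on chromatin.

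**Figure D2:**
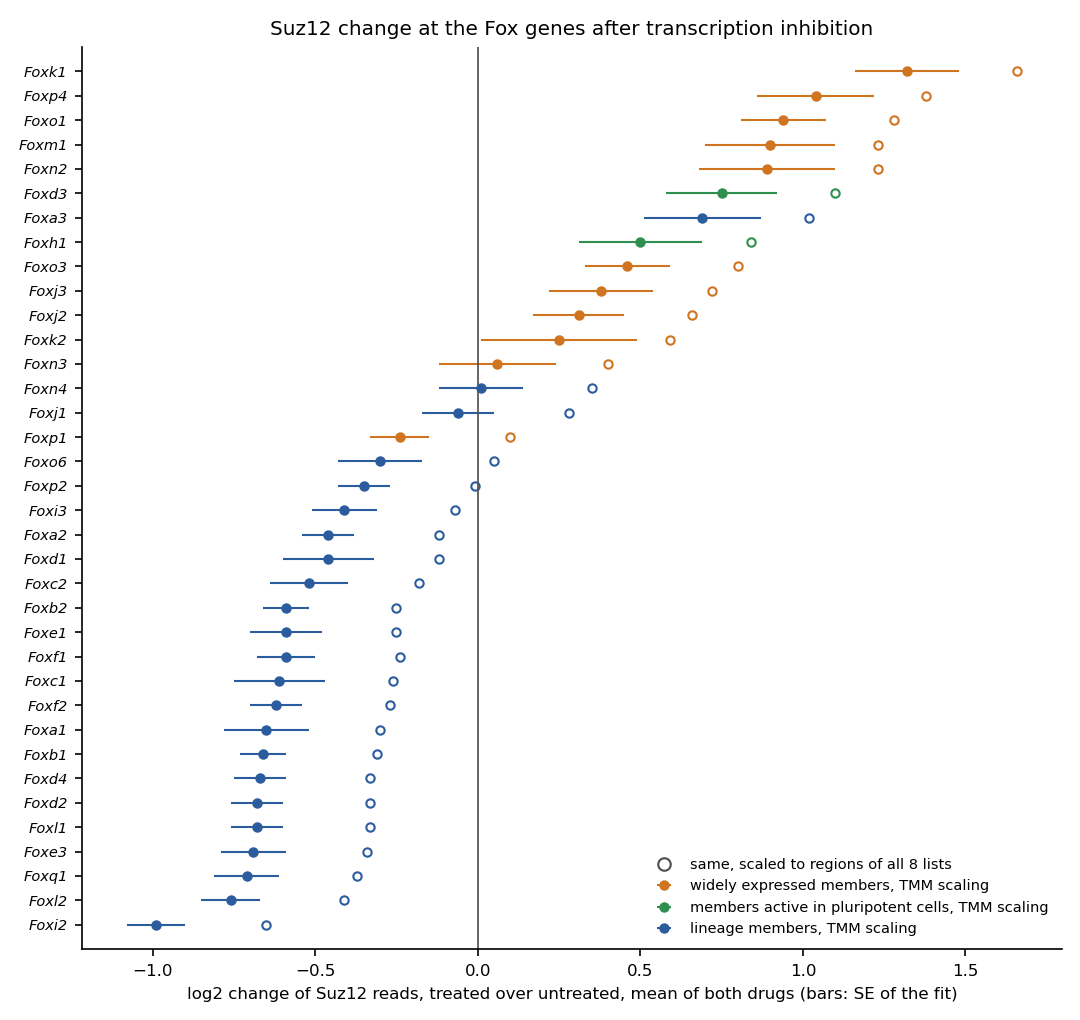
Log2 change of Suz12 reads, treated over untreated, mean of both drugs (horizontal axis), for the 36 Fox genes with a region; filled points are the TMM-scaled values with the SE of the fit (4 treated and 4 untreated libraries), open points the same change scaled to regions with a peak in all 8 lists. Widely expressed members (orange) fill the top, from 1.32 at Foxk1, and lineage members (blue) the bottom, down to -0.99 at Foxi2; Foxj1, Foxp1 and Foxo6 change sign between the scalings.

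Reads per library are given as CPM, the TMM-scaled count per 1000000 reads in all regions. Foxk1, a regulator of autophagy genes and glycolysis, showed the largest rise of the family, in a region at chr5:142401227-142402750. It had 75.6 and 51.4 CPM at DRB 12 h, against 27.1 and 22.4 CPM at DRB 0 h, and 42.1 and 51.0 CPM at triptolide 9 h, against 19.8 and 18.8 CPM at triptolide 0 h. Every treated value exceeded the highest untreated one. The log2 change was 1.32 ± 0.16 (SE), with an adjusted p of 4.23e-05 by edgeR. By drug it was 1.37 ± 0.23 for DRB and 1.27 ± 0.23 for triptolide.

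Foxp4, which acts in lung and gut epithelium and in T cells, had its region at chr17:47921347-47925587, from -955 to 3285 bp relative to the start site. There were 234 and 150 CPM at DRB 12 h, against 101 and 58.4 CPM at DRB 0 h, and 136 and 160 CPM at triptolide 9 h, against 75.1 and 102 CPM at triptolide 0 h. The treated libraries again lay above all untreated ones, the nearest being 136 CPM at triptolide 9 h and 102 CPM at triptolide 0 h. The log2 change was 1.04 ± 0.18 (edgeR adjusted p = 0.000429).

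Foxo1, the insulin-regulated factor whose promoter is printed above, had its region at chr3:52267217-52270393, from -1120 to 2056 bp relative to the start. It had 180 and 130 CPM at DRB 12 h, against 92.0 and 75.3 CPM at DRB 0 h, and 145 and 140 CPM at triptolide 9 h, against 65.1 and 80.5 CPM at triptolide 0 h. No treated library fell among the untreated ones, and the log2 change was 0.94 ± 0.13 (edgeR adjusted p = 8.37e-05). By drug it was 0.90 ± 0.19 for DRB and 0.97 ± 0.18 for triptolide.

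Foxm1, the mitotic regulator, and Foxn2 rose at low levels. Foxm1 had 22.4 and 19.3 CPM at DRB 12 h, against 11.5 and 9.65 CPM at DRB 0 h, and 13.3 and 16.2 CPM at triptolide 9 h, against 9.75 and 7.22 CPM at triptolide 0 h. Its region, at chr6:128362237-128363318, also lies at an end of Rhno1, so these reads cannot be assigned to either gene. The log2 change was 0.90 ± 0.20 (edgeR adjusted p = 0.00238). Foxn2 had 27.6 and 28.1 CPM at DRB 12 h, against 8.22 and 15.8 CPM at DRB 0 h, and 23.9 and 26.4 CPM at triptolide 9 h, against 11.5 and 19.9 CPM at triptolide 0 h. Its log2 change was 0.89 ± 0.21 (edgeR adjusted p = 0.00317), and at both genes every treated library lay above every untreated one. The lowest of these values rest on few reads, 14 for Foxm1 and 10 for Foxn2 in the shallowest library, DRB 0 h of index ATCACG.

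Foxo3, the second insulin-regulated member, had a log2 change of 0.46 ± 0.13 (edgeR adjusted p = 0.00967), in a region with a peak in all 8 lists. There were 194 and 159 CPM at DRB 12 h, against 162 and 121 CPM at DRB 0 h, and 207 and 262 CPM at triptolide 9 h, against 138 and 178 CPM at triptolide 0 h. Its groups overlapped, and the call was lost without the DRB 0 h library of index TGACCA (0.35, edgeR adjusted p = 0.069), without triptolide 9 h replicate 2 (0.37, 0.0513) and without triptolide 0 h replicate 1 (0.37, 0.0525). Foxj2, Foxj3, Foxk2 and Foxn3 were not called, with log2 changes of 0.31, 0.38, 0.25 and 0.06. Foxp1, a neural and lymphoid regulator, was the only widely expressed member to fall, at -0.24 ± 0.09 (edgeR adjusted p = 0.0336). This call was lost in 5 of the 8 fits without 1 library and was 0.10, not called, when scaled to regions with a peak in all 8 lists.

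Some widely expressed members (Foxj3, Foxk1, Foxk2, Foxm1 and Foxn2), Foxh1 and Foxa3 have a region at all because a treated list called a peak there, so a rise is partly fixed by how they entered. Among all regions with peaks in treated lists alone, 44.2% rose and 1.15% fell. Of the 6 widely expressed members with a peak in an untreated list, 3 rose (Foxo1, Foxo3 and Foxp4), 1 fell and 2 were not called, with a median log2 change of 0.39. All 22 lineage members with an untreated peak gave 19 that fell and none that rose, with a median of -0.60. Reads were counted in the widest peak of a region. It came from a treated list at each of these 6 members and from an untreated list at most of these 22. Windows set in this way can favour a rise at the former and a fall at the latter, which was not tested. Of all 6828 regions with an untreated peak, 15.8% rose and 49.7% fell, with a median of -0.33. Scaled to regions with a peak in all 8 lists, 4 of the 6 widely expressed members rose and none fell, and 2 of the 22 lineage members rose (Foxj1 and Foxn4) and 12 fell, against 30.5% and 19.7% of all such regions, whose median was then 0.02.

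**Figure D3:**
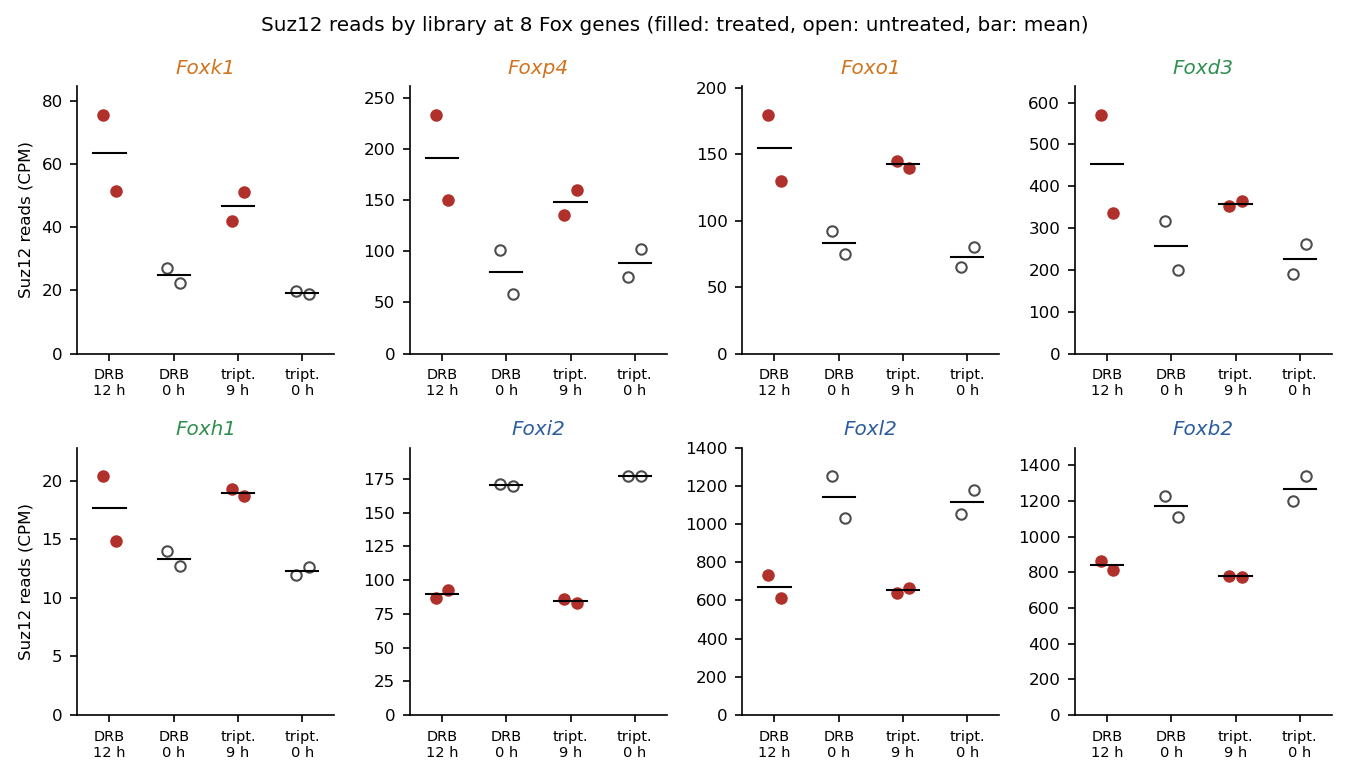
Suz12 reads (CPM, vertical axis from 0) in each of the 8 libraries at 8 Fox genes; filled points are treated and open points untreated libraries, with a bar at the mean of the 2 libraries. At Foxk1, Foxp4, Foxo1, Foxd3 and Foxh1 every treated library lies above every untreated one, and at Foxi2, Foxl2 and Foxb2 below; which genes fall depends on the scaling, and these 3 fall under each one tried.

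Foxd3, which holds ES cells undifferentiated and later specifies the neural crest, was the only member with more than 50 CPM per kb of peak before treatment that rose. At its start, chr4:99655614-99658473, it had 571 and 337 CPM at DRB 12 h, against 316 and 199 CPM at DRB 0 h, and 353 and 364 CPM at triptolide 9 h, against 191 and 263 CPM at triptolide 0 h. Every treated library lay above every untreated one, the nearest being 337 CPM treated and 316 CPM untreated. The log2 change was 0.75 ± 0.17 (edgeR adjusted p = 0.00291). Per kb of peak the treated libraries averaged 143 CPM, the highest treated level of any member, against 85.4 CPM in untreated ones.

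The rise at Foxd3 extended beyond its start. A region at chr4:99650033-99655477, from -6266 to -822 bp relative to the start, had 197 and 273 CPM at DRB 12 h, against 151 and 119 CPM at DRB 0 h, and 297 and 248 CPM at triptolide 9 h, against 155 and 140 CPM at triptolide 0 h. There the log2 change was 0.86 ± 0.12 (edgeR adjusted p = 0.000116), again with no overlap between treated and untreated libraries. The peaks in this region covered 4317 to 5445 bp in the 4 treated lists, against 1729 to 2768 bp in the 4 untreated ones. Another region, 3058 to 4594 bp after the start, changed by 0.57 ± 0.20 (edgeR adjusted p = 0.0244), and there the groups overlapped.

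Foxh1, the partner of Smad2 and Smad3 in Nodal signalling, had low reads, in a region 440 bp outside its lower annotated end that also lies at an end of Kifc2. It averaged 17.7 ± 3.86 CPM at DRB 12 h, against 13.3 ± 0.894 CPM at DRB 0 h, and 19.0 ± 0.366 CPM at triptolide 9 h, against 12.3 ± 0.418 CPM at triptolide 0 h (SD, n = 2 each). The treated libraries lay above all untreated ones by a small margin, the lowest at 14.9 CPM. The log2 change of 0.50 ± 0.19 had an edgeR adjusted p of 0.0336, and the call was lost in 7 of the 8 fits without 1 library and in DESeq2 (adjusted p = 0.116).

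Among lineage members Foxi2, of the Foxi subfamily of the ear and epidermis, fell most. In its region, chr7:135409482-135412313, it had 86.8 and 93.0 CPM at DRB 12 h, against 171 and 170 CPM at DRB 0 h, and 85.9 and 82.8 CPM at triptolide 9 h, against 177 and 177 CPM at triptolide 0 h. Each pair of replicates lay close together, and all treated libraries were far below the untreated ones. The log2 change was -0.99 ± 0.09 (edgeR adjusted p = 5.73e-06), and -0.65 (edgeR adjusted p = 0.000135) when scaled to regions with a peak in all 8 lists. Its promoter, printed above, is the poorest in CG of the matched members.

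Foxl2, which keeps granulosa cells of the ovary in their fate, had 731 and 614 CPM at DRB 12 h, against 1250 and 1030 CPM at DRB 0 h, and 639 and 666 CPM at triptolide 9 h, against 1050 and 1180 CPM at triptolide 0 h. The treated libraries were all below the untreated ones, with a log2 change of -0.76 ± 0.09 (edgeR adjusted p = 2.96e-05). Foxq1, which acts in hair and stomach lining, had 387 and 321 CPM at DRB 12 h, against 606 and 541 CPM at DRB 0 h, and 333 and 385 CPM at triptolide 9 h, against 542 and 652 CPM at triptolide 0 h. Foxe3, needed for the lens, had 352 and 278 CPM at DRB 12 h, against 530 and 470 CPM at DRB 0 h, and 305 and 324 CPM at triptolide 9 h, against 469 and 557 CPM at triptolide 0 h. The log2 changes were -0.71 ± 0.10 at Foxq1 and -0.69 ± 0.10 at Foxe3 (edgeR adjusted p = 7.63e-05 and 0.000105), with no overlap at either.

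Foxl1, a marker of the mesenchyme beneath the gut epithelium, had 377 and 355 CPM at DRB 12 h, against 610 and 561 CPM at DRB 0 h, and 368 and 365 CPM at triptolide 9 h, against 557 and 620 CPM at triptolide 0 h. Its log2 change was -0.68 ± 0.08 (edgeR adjusted p = 2.66e-05). Foxd2, which acts in mesenchyme and kidney, had the longest region of the family, chr4:114899322-114911370. It had 858 and 716 CPM at DRB 12 h, against 1290 and 1110 CPM at DRB 0 h, and 726 and 726 CPM at triptolide 9 h, against 1150 and 1280 CPM at triptolide 0 h. That is a log2 change of -0.68 ± 0.08 (edgeR adjusted p = 4.21e-05). All 6 of these lineage members fell under each of the 3 scalings.

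Foxb2 and Foxf1 were, with Foxd2, the lineage members with most untreated reads. Foxb2 had 864 and 815 CPM at DRB 12 h, against 1230 and 1110 CPM at DRB 0 h, and 781 and 775 CPM at triptolide 9 h, against 1200 and 1340 CPM at triptolide 0 h. Foxf1, needed for the blood vessels and mesenchyme of the lung, had 895 and 722 CPM at DRB 12 h, against 1250 and 1060 CPM at DRB 0 h, and 743 and 755 CPM at triptolide 9 h, against 1120 and 1250 CPM at triptolide 0 h. Both had a log2 change of -0.59, with an SE of 0.07 at Foxb2 and 0.09 at Foxf1 (edgeR adjusted p = 4.19e-05 and 0.000148), and treated libraries below all untreated ones. When scaled to regions with a peak in all 8 lists the changes were -0.25 and -0.24, and both were still called.

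The other lineage members that fell ranged from -0.67 at Foxd4 to -0.35 at Foxp2. Of these, Foxa1 (-0.65), Foxc1 (-0.61), Foxc2 (-0.52), Foxa2 (-0.46), Foxd1 (-0.46), Foxi3 (-0.41) and Foxp2 (-0.35) were not called when scaled to regions with a peak in all 8 lists. Foxd1, of the kidney stroma, also lost its call without the DRB 0 h library of index ATCACG (-0.40, edgeR adjusted p = 0.0529) and without triptolide 0 h replicate 2 (-0.33, 0.0689). Foxj1, which builds motile cilia, Foxn4 and Foxo6 were not called, at -0.06, 0.01 and -0.30. The value of Foxa1 is from a region at -6004 to -1591 bp relative to its RefSeq start. The Foxa1 region across that start changed by -0.43 ± 0.09 (edgeR adjusted p = 0.00152), and by -0.08, not called, when scaled to regions with a peak in all 8 lists. Foxa3, the lineage member that rose, had 37.2 and 28.3 CPM at DRB 12 h, against 22.2 and 18.1 CPM at DRB 0 h, and 29.6 and 21.9 CPM at triptolide 9 h, against 18.6 and 13.7 CPM at triptolide 0 h. Its log2 change was 0.69 ± 0.18 (edgeR adjusted p = 0.00663), with a single overlap of 21.9 CPM treated and 22.2 CPM untreated. The call was lost without the DRB 0 h library of index TGACCA (0.59, 0.0521). This region also lies at an end of Sympk.

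Several of the lineage members that fell are neighbours. Foxq1, Foxf2 and Foxc1 lie on chromosome 13, 64.8 and 175 kb apart, and changed by -0.71, -0.62 and -0.61 on the log2 scale. Foxf1, Foxc2 and Foxl1 lie on chromosome 8, 28.0 and 8.79 kb apart, and changed by -0.59, -0.52 and -0.68. Foxd2 and Foxe3 lie 15.5 kb apart on chromosome 4, at -0.68 and -0.69. Foxo6 and Foxj3, also on chromosome 4 but 638 kb apart, are of different roles and were both not called. Of the 14 further regions of members 7 fell, at Foxa1, Foxa2, Foxc1, Foxc2, Foxd1 and Foxf1, and 2 rose, both at Foxd3, against 28.9% and 28.0% of all regions. Scaled to regions with a peak in all 8 lists the balance turned, to 3 that fell and 5 that rose, against 11.2% and 47.4% of all regions.

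The roles also differed in level. Per kb of peak, the untreated libraries averaged a median of 19.8 CPM over the widely expressed members (from 9.58 at Foxm1 to 106 at Foxp1) and 124 CPM over the lineage members (from 17.4 at Foxa3 to 173 at Foxe1). After treatment the medians were 40.1 CPM and 82.8 CPM. Over all regions the change moved with the level. Regions with a mean below 25 CPM per kb had a median log2 change of 0.36, and those of 100 CPM per kb or more had a median of -0.47. Below 25 CPM per kb the roles did not differ in direction. The 4 widely expressed members, 1 lineage member and 1 member active in pluripotent cells there all lay above 0, against 73.7% of all regions. All of them entered through treated lists alone. In the highest band 13 lineage members had a median of -0.59 and none lay above 0. Scaled to regions with a peak in all 8 lists, 7.69% of these 13 did. Foxd3 was 1 of 7 regions above 0 (2.24%) among the 312 in that band by TMM, whereas 24.4% of them lay above 0 when scaled to regions with a peak in all 8 lists, with Foxd3 at 1.10. From 25 to 50 CPM per kb, 5 of 5 widely expressed members lay above 0 by TMM (median 0.94), against 1 of 3 lineage members and 44.2% of all 3852 regions. Among these 5 is Foxk1, whose region entered through treated lists alone. Scaled to regions with a peak in all 8 lists, 66.7% of the lineage members in this band lay above 0, close to the 64.2% of all regions. For the widely expressed members it was 100.0%. From 50 to 100 CPM per kb, 1 of 2 widely expressed members (Foxj2, not Foxp1) lay above 0 by TMM. This held for 0 of 6 lineage members and for 19.4% of all regions. On the other scaling it held for both widely expressed members, for 0 of 6 lineage members and for 44.3% of all regions. How much of the contrast between roles goes with the level was not tested.

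**Figure D4:**
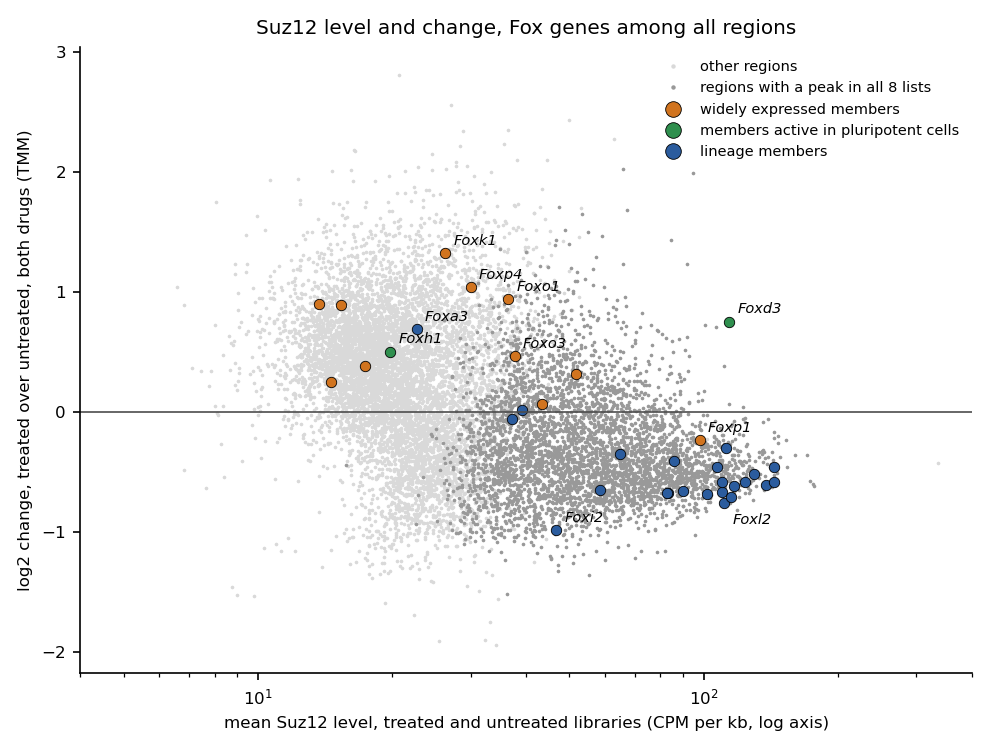
Mean Suz12 level of the treated and untreated libraries (CPM per kb, log axis) against the TMM-scaled log2 change, treated over untreated, for all 11943 regions (grey, darker where all 8 lists have a peak) and the 36 Fox genes with a region (coloured by role). Lineage members crowd at high level below 0, where 2.24% of all regions of 100 CPM per kb or more lie above 0, and Foxd3 stands above them; scaling to regions with a peak in all 8 lists moves the median of all regions to 0.39 and that 2.24% to 24.4%.

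A ratio of reads within a library is free of scaling, but not of the choice of window. Each region was counted in its widest peak. That peak came from a treated list at the 6 widely expressed members below and at Foxd3. At most of the lineage members it came from an untreated list. Such windows can raise the ratio in treated libraries, and how far they do was not tested. The reads at the 6 widely expressed members with an untreated peak, as a percent of the separate reads at the 22 lineage members with one, were 11.0% and 10.2% at DRB 12 h, against 5.91% and 5.69% at DRB 0 h. They were 10.1% and 10.7% at triptolide 9 h, against 5.64% and 5.82% at triptolide 0 h. The treated libraries were thus close to each other and well apart from the untreated ones. Over the members with a peak in all 8 lists, 4 widely expressed and 22 lineage, the ratio was 7.04% to 7.57% in the treated libraries, against 4.64% to 4.71% in the untreated ones. The reads at Foxd3 alone came to 5.21%, 3.65%, 3.79% and 3.73% of the lineage reads in the treated libraries, against 2.04%, 1.46%, 1.36% and 1.63% in the untreated ones. The high treated value and the high untreated value are the DRB libraries of index ATCACG, the shallowest of their groups.

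**Figure D5:**
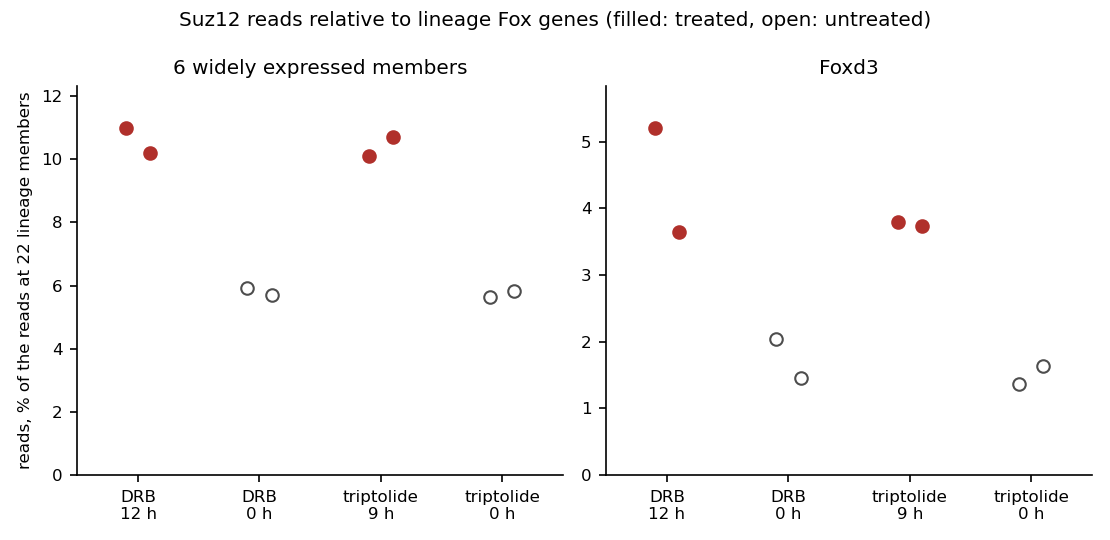
Suz12 reads at 6 widely expressed members (left) and at Foxd3 (right), as a percent of the reads at 22 lineage members in the same library, for members with a peak in an untreated list; each point is 1 library, filled where treated. The treated libraries sit between 10.1% and 11.0% on the left, above the untreated ones at 5.64% to 5.91%.

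Several members that rose also had longer peaks after treatment. Peaks at Foxo3 covered 3455 to 4710 bp in the treated lists, against 1315 to 3112 bp in the untreated ones. At Foxo1 they covered 2878 to 3119 bp after treatment, against 1035 to 1947 bp in the 3 untreated lists with a peak. At Foxp4 they covered 2099 to 4241 bp, against 1168 and 1844 bp in the 2 untreated lists with a peak. At the start of Foxd3 they covered 2662 to 2837 bp after treatment, against 2380 to 2568 bp before it. Each of these 4 was longer in every treated list than in any untreated one. Of the 22 lineage members with a peak in all 8 lists none was, and Foxi2 was shorter in every treated list, at 1142 to 1279 bp against 1301 to 2790 bp. Over all 4281 regions with a peak in all 8 lists 13.1% were longer in every treated list and 0.467% were shorter. Peak length can depend on depth. The treated libraries held 2416523 to 7340017 reads over the regions, against 1323927 to 4396744 in the untreated ones. How much of the difference in length goes with depth was not tested.

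The drugs were compared one by one and with each other. After DRB 7 members rose and 14 fell, where 18.0% of all regions rose and 19.2% fell. After triptolide 6 rose and 20 fell, where 19.3% of all regions rose and 21.9% fell. Single-drug calls rested on few libraries. Without the DRB 0 h library of index TGACCA 3 members rose under DRB. Under triptolide 2 rose without 9 h replicate 2 and 2 without 0 h replicate 1, 3 rose without 9 h replicate 1, and 12 fell without 9 h replicate 1 or without 0 h replicate 2. Leaving out either DRB 12 h library brought the triptolide rises to 10. Foxk1 rose under each drug in all 8 of these fits. Foxd3 at its start lost its DRB call without the DRB 12 h library of index ATCACG (0.42, edgeR adjusted p = 0.133) and without the DRB 0 h library of index TGACCA (0.51, 0.226). Its triptolide call was lost without 9 h replicate 1 (0.71, 0.101), without 9 h replicate 2 (0.67, 0.122) and without 0 h replicate 1 (0.45, 0.3). DESeq2 called it under neither drug (adjusted p = 0.118 for DRB and 0.204 for triptolide), but called it over both (0.0255).

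No member differed between the drugs. The test of the difference, the DRB change minus the triptolide change, called 0 of 36 members by edgeR or DESeq2, and 0 had an unadjusted p under 0.05 by either. Of all regions 0.00% were higher and 0.0167% lower under that test. The widest difference was 0.58 ± 0.36 (SE, log2) at Foxp4, with 1.33 ± 0.26 for DRB and 0.75 ± 0.25 for triptolide. The doses, times and start points of the drugs differ, and a missed threshold does not show that they act alike.

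Of 29 genes that act with Fox factors, 21 had a region. They include Smads and Nodal ligands around Foxh1, insulin and Akt signalling genes upstream of the Foxo members, and their targets. Over both drugs 10 of the 21 rose and 4 fell, against 28.0% and 28.9% of all regions, and 15 rose and none fell when scaled to regions with a peak in all 8 lists, against 47.4% and 11.2%. Of the 7 bound in all 8 lists, 2 rose and 4 fell by TMM, and 2 rose and none fell on that scaling. The Foxo targets Klf2, a blood vessel regulator, and Cdkn1b, a cell-cycle inhibitor, had peaks in the 4 treated lists alone. Klf2 had 130 and 132 CPM at DRB 12 h, against 21.4 and 24.9 CPM at DRB 0 h, and 116 and 107 CPM at triptolide 9 h, against 23.2 and 25.3 CPM at triptolide 0 h. Its log2 change was 2.34 ± 0.12 (edgeR adjusted p = 1.54e-07), and that of Cdkn1b was 1.43 ± 0.16 (2e-05). The insulin signalling adaptor Irs2, bound in all 8 lists, rose by 0.89 ± 0.10 (2.28e-05) by TMM and by 1.23 when scaled to regions with a peak in all 8 lists. Its relative Irs1 fell by 0.26 by TMM (0.00946) but was at 0.08, not called, on that scaling (0.269). Among Nodal pathway genes, the shared signal carrier Smad4 (0.93) and the Nodal inhibitor Lefty2 (0.89) rose. The mesendoderm regulators Gsc (-0.45) and Mixl1 (-0.29) fell on the TMM scaling, and neither was called on the scaling to regions with a peak in all 8 lists.

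Hox and T-box genes, which pattern the body axis and the early germ layers, are other families of developmental regulators. Of the 39 Fox genes 27 (69.2%) were bound in all 8 lists, against 39 of 39 Hox genes and 12 of 16 T-box genes. The median log2 change was -0.59 over the lineage Fox members, -0.60 over the Hox genes (27 separate regions, 39 genes lower) and -0.59 over the 13 T-box genes with a region (10 lower and 1 higher). No test compared the families.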

How the data were processed

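Suz12 ChIP-seq was used from 8 of 20 samples, 2 libraries in each of 4 groups. Per the submitters' processing notes the tools were Bowtie and MACS and the build was mm10 (without versions). The authors deposited 1 peak list per library, with the count of reads of each Suz12 library in every peak. Counts of the other 5 of 13 count columns (3 h, 6 h and input) were not used. DRB columns carry an index (ATCACG or TGACCA), and those of TGACCA also a digit after the time. They do not carry the replicate number of the sample titles, whereas triptolide columns do.

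Peaks of the 8 lists sharing at least 1 bp became 11943 merged regions, and each region took the counts of its widest peak. Genes and promoters came from RefSeq (GRCm38.p6). Counts were scaled by TMM without a filter and tested with edgeR 4.0.16 in R 4.3.3 (quasi-likelihood, 4 groups, Benjamini-Hochberg over all regions, threshold 0.05). Python 3.11.15 was used for the rest. The reads over regions ranged from 1323927 to 7340017 per library, so precision is lowest for DRB 0 h of index ATCACG. Library totals are unknown, so changes are relative. The test was tried on simulated data in which 11743 of the 11943 regions did not change. Over both drugs its recovery was 48.5% for changes of 1.5-fold and 88.9% for those of 2-fold. At 1.5-fold, recovery was 18.2% under DRB and 22.7% under triptolide. In the real data 28.0% of regions rose and 28.9% fell over both drugs, so the simulation cannot show whether the TMM scaling holds.

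The members, roles and gene lists were chosen with earlier results of these data known. Members with values in each library were the 6 that rose and the 6 that fell most among those called, Foxh1, and the 3 lineage members with the most untreated reads; Foxo3, Foxa3 and Klf2 were added after their values were seen. Alternatives were other scalings, DESeq2 1.42.0, a filter on low counts, another source of counts, blocks, leaving out each library, and other peak settings.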

Additional observations from a re-analysis of the deposited data

How the results depend on the processing

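Over both drugs 9 members rose and 20 fell on the TMM scaling, against 14 and 12 when scaled to regions with a peak in all 8 lists. On that scaling 9 fell under DRB (14 by TMM), and 11 rose and 11 fell under triptolide (6 and 20 by TMM). Scaled to the sum of all counts, 10 rose under triptolide. Foxj1 over both drugs turned to 0.28, and Foxp1 to 0.10 over both drugs and 0.01 under triptolide, when scaled to regions with a peak in all 8 lists. DESeq2 gave 4 that rose under DRB, against 7 by edgeR.

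Triptolide libraries of the same replicate number deviated together (r = 0.394), as did DRB libraries of the same index (r = 0.375), each over 2 pairs, which share only a number or an index. With the replicate block within triptolide 9 rose and 21 fell over both drugs, 7 rose and 15 fell under DRB, and 5 rose and 20 fell under triptolide. With the index as a term within DRB, 9 rose and 19 fell under DRB (20 fell with the block added), and 10 rose under triptolide, also with the block added. Over both drugs 11 rose and 21 fell with that term, since Foxj2 and Foxj3 were then called as higher and Foxo6 as lower. The index settings were chosen after seeing the data. No paired analysis by the replicate number of the sample titles was possible for DRB, because its columns do not carry that number. The digit after the time in the TGACCA columns marks the same pairs as the index.

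Leaving out 1 library gave 7 to 11 that rose and 18 to 21 that fell over both drugs, 3 to 8 and 10 to 18 under DRB, and 2 to 10 and 12 to 20 under triptolide. No member differed between the drugs in any fit. With only peaks of at least the median width (1357 bp), 1 member was gained (2 with all peaks), 1 widely expressed member was bound in all 8 lists (4 with all peaks) and 9 had no peak (3 with all peaks). Leaving out 1 list gave 27 to 28 members bound in all lists, 2 gained, 22 lineage and 4 to 5 widely expressed members bound in all lists, and 3 to 4 with no peak. Lane and treatment cannot be told apart, and low members such as Foxm1 and Foxn2 are limited by depth.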
